A study of Gallus gallus with 2 samples.

Results

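The enzymes of glycolysis, the pentose phosphate pathway and the citrate cycle were read on 1-colour Agilent arrays of DT40, a chicken B cell line. Of 41 listed genes, chosen for their place in these pathways and looked up by the symbol that a RefSeq table pairs with each probe's accession, 29 had at least 1 probe, among 5382 such genes on the array. The R80C culture expressed FLAG-tagged H2A.Z-R80C, a cancer-associated mutant of the histone variant H2A.Z, and the H2A.Z.1 culture expressed FLAG-tagged H2A.Z.1. Cells of both cultures lacked their own H2A.Z through knockout of both genes, carried the protein as a stable transgene and were grown without tetracycline. The labels do not say whether each culture was 1 clone. There was 1 array per group, both on 1 slide, so no test, p-value or replicate error could be had, and every difference describes these 2 arrays.

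Glycolysis splits glucose into pyruvate in the cytosol, and lactate dehydrogenase turns pyruvate into lactate and back. The pyruvate dehydrogenase complex commits pyruvate to the citrate cycle in mitochondria, and its kinases switch the complex off. The pentose phosphate pathway branches off after the hexokinase step and supplies NADPH and ribose for nucleotides. Many of these steps can be carried out by several isoenzymes, and dividing lymphoid cells are known for a high flux of glucose to lactate.

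The arrays were alike in quality, with 71.5% (R80C) and 70.1% (H2A.Z.1) of 43803 non-control spots well above background and no saturated spot. Values are log2 of the processed signal less that of the array's 75th percentile, which was 1055 for R80C and 1078 for H2A.Z.1, and differences are R80C minus H2A.Z.1. This scaling adds 0.031 to each raw log2 ratio, so a gene with nearly equal raw signals has a difference slightly above 0. The technical spread of a difference was an SD of 0.053 between repeated spots of 1 probe (39 probes) and 0.094 between probes of 1 gene (2776 genes). Feature Extraction, the scanner software, gave an error of its own for each spot. Over the members' 66 measured probes this came to between 0.20 and 0.28 on a difference. The lowest value was also the median, so many probes carried almost the same error. All 11 B cell markers with a probe were above background on both arrays, among them CD79B, PAX5 and BTK. So were 5 of 6 T cell, 5 of 6 fibroblast and 4 of 4 erythroid markers, each through at least 1 probe. Of the markers of other cell types, CD4 and DCN were below it at all probes. The fibroblast markers, with 9 of 29 probes above it, summed to a signal of 1679 in R80C cells and 927 in H2A.Z.1 cells. This gap lay in COL1A2 (0.94, with measured probes from 0.084 to 1.56). Of these markers, LUM (0.27) and POSTN (0.32) also stood above 0, while COL3A1 stood at -0.083 and THY1 at -0.31. The LUM, POSTN and THY1 markers each rested on 1 faint measured probe, with errors of 0.34, 0.40 and 0.42 that exceeded the differences. Those of T cells summed to 72398 in R80C cells and 80214 in H2A.Z.1 cells, nearly all of it from CD3D (-0.071), while CD3E stood at -1.54 and CD8A, CD28 and TCF7 between 0.026 and 0.084. Those of erythroid cells summed to 403 in R80C cells and 391 in H2A.Z.1 cells. Their part in the values below was not tested.

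Most members with a probe were above background on both arrays, and most of these differed little between the cultures. Of the 29 genes, 26 (89.7%) had at least 1 probe well above background on both arrays, against 80.4% of all genes with a named probe. Their differences ran from -0.044 for SUCLG1 and PDK3 to 0.30 for LDHA, with a median of 0.026, against a median of 0.013 over all 4326 named genes measured. The difference was under 0.1 in size for 23 of the 26, against 62.2% of all named genes. Bright genes varied less, and 20 of the 26 members were at or above the median signal, where this share was not counted. LDHA was the 1 member at least 1.2-fold higher in R80C cells, against 4.07% of all named genes, and 0 members were at least 1.2-fold lower, against 5.99%. A count of 1 in 26 is near that background, and it became 0 under normexp with quantile normalization, where LDHA stood at 0.26, and 2 (LDHA and HK2) with no filter on dim probes. No member reached 1.5-fold in either direction, which 0.67% of named genes did upwards and 1.27% downwards. In the brighter 2163 genes, those not below the median signal, which included 20 members, 0.832% of genes were at least 1.2-fold higher and 1.25% at least 1.2-fold lower.

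**Figure D1:**
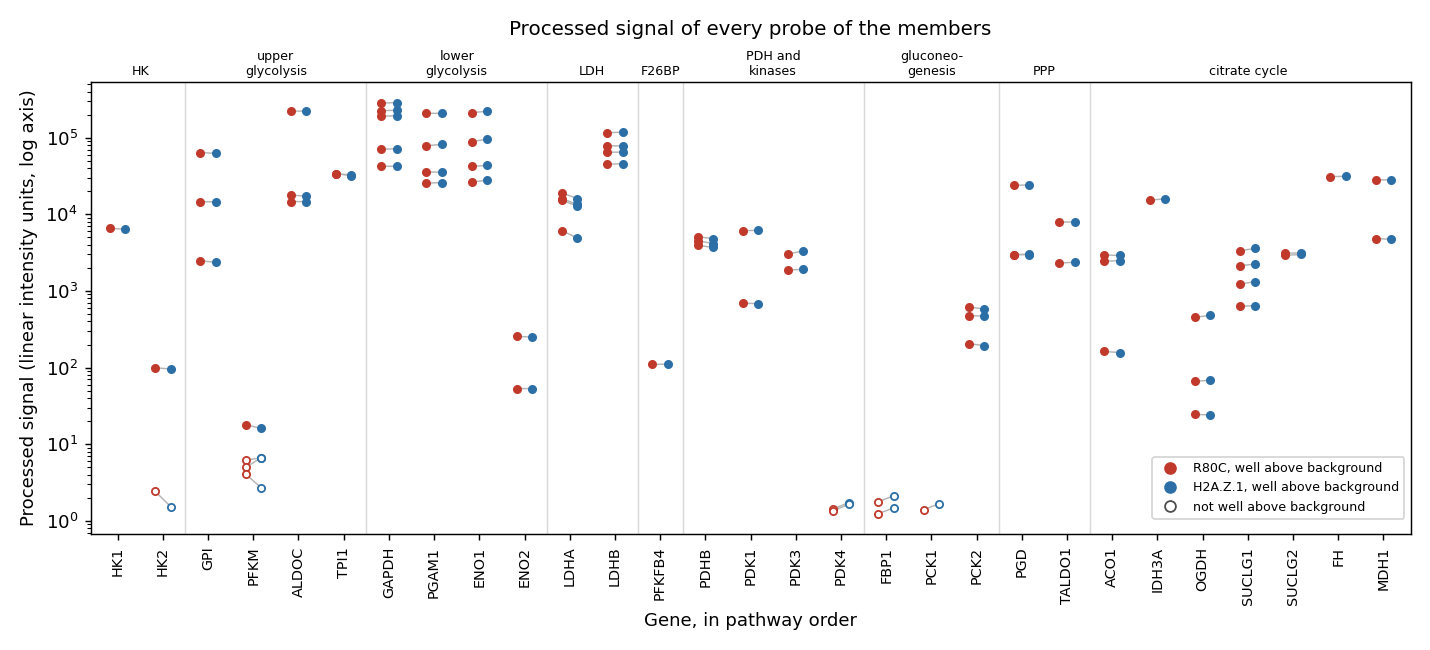
Processed signal (linear intensity units, log axis) of every probe of the 29 members in pathway order, with the R80C array left and the H2A.Z.1 array right and a line joining the 2 readings of a probe. LDH is lactate dehydrogenase, F26BP the enzymes of the phosphofructokinase activator, PDH pyruvate dehydrogenase and PPP the pentose phosphate pathway. Open points, at 6.64 or lower, were not well above background: all probes of PDK4, FBP1 and PCK1, 3 of 4 of PFKM and 1 of 2 of HK2.

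The detection flag was read probe by probe, and for the members it gave the same answer on both arrays. A probe below background does not show that its transcript was absent. None of the members' 75 probes was above background on 1 array only, and 9 were below it on both. Signals of different probes are not a measure of relative transcript level, since measured probes of 1 member differed by up to 25.9-fold in signal on the R80C array (GPI), and only the flag and the difference between the arrays are read here. Of the hexokinases, HK1, the broadly expressed form, was above background, and HK2, the form that insulin and hypoxia induce in mammals, was above it at 1 of 2 probes. PFKM, the muscle-type phosphofructokinase, was above background at 1 of 4 probes, and the liver and platelet forms PFKL and PFKP were not analysed here. Both lactate dehydrogenase genes were above background at all of their probes, as were the enolase genes ENO1 and ENO2 (ENO2 is known as the neuronal form in mammals). PDK1 and PDK3, kinases that inactivate pyruvate dehydrogenase, were above background at every probe, whereas PDK4, the kinase that fasting induces in mammals, was below it at both.

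The enzymes that reverse glycolysis also differed in the flag of their probes. PCK2, the mitochondrial phosphoenolpyruvate carboxykinase, was above background at 3 of 3 probes. PCK1, its cytosolic counterpart, read 1.40 in R80C cells and 1.67 in H2A.Z.1 cells at its only probe. FBP1, which undoes the phosphofructokinase step, read 1.78 and 1.25 at its 2 probes in R80C cells, against 2.13 and 1.48 in H2A.Z.1 cells. The PDK4 probes read 1.43 and 1.36 in R80C cells, against 1.73 and 1.64 in H2A.Z.1 cells. These 5 probes had almost the same difference, from -0.24 to -0.22, with a Feature Extraction error of 1.54 to 2.03. Probes of other genes below background could read alike, such as those of PRKAA2 at -0.26 and -0.23, while those of DCN stood at 0.72 and 0.65. The shared value is therefore not read as a change of PDK4, FBP1 and PCK1. No fold is given for a gene below background on both arrays.

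**Figure D2:**
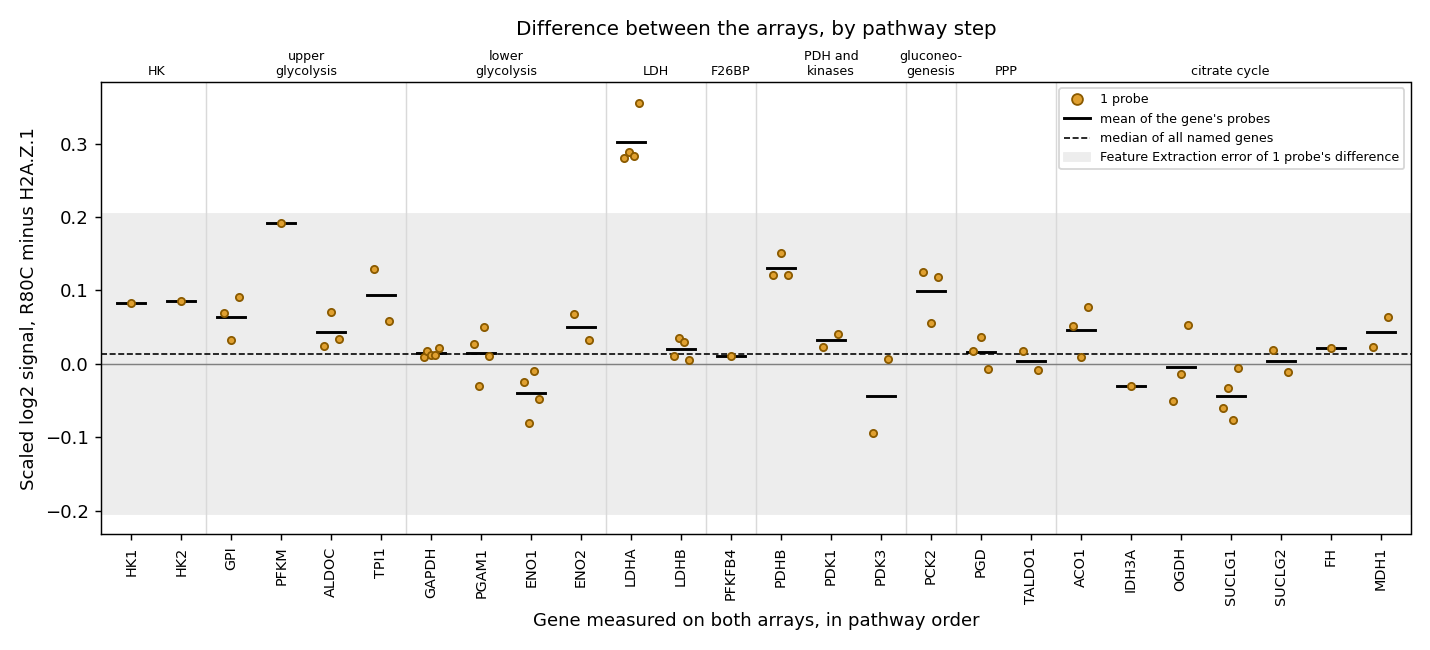
Scaled log2 signal, R80C minus H2A.Z.1, of the 66 measured probes of 26 members in pathway order. Each point is 1 probe, the bar is the mean of the gene's probes, the dashed line is the median of all named genes (0.013), and the grey band is the median Feature Extraction error of 1 probe's difference (0.20). The 4 LDHA probes are the only ones outside the band.

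The largest difference among the members was at lactate dehydrogenase. LDHA encodes the subunit that favours the conversion of pyruvate to lactate. Its 4 probes read 19070, 16079, 15260 and 6134 in R80C cells, against 16036, 13452, 12809 and 4896 in H2A.Z.1 cells. Each probe was brighter in R80C cells, with differences of 0.28, 0.29, 0.28 and 0.36 and a mean of 0.30, or 1.23-fold. All 4 exceeded the Feature Extraction error of 0.20, which 0 of the members' other 62 measured probes did. That error was almost the same for most of these probes, so it acts as a nearly fixed cut on the difference. How many of all named probes exceeded theirs was not counted. A larger difference was seen in 134 of 4326 named genes (3.10%) and in 12 of the 2163 at or above the median signal. Of the 568 genes with at least 4 measured probes, 4, LDHA among them, had every probe at or above LDHA's lowest, and 6 had every probe as far below 0.

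LDHB encodes the subunit that favours the oxidation of lactate. Its 4 probes read 116374, 78395, 64815 and 45066 in R80C cells, against 118046, 78174, 64836 and 45868 in H2A.Z.1 cells, with differences of 0.0052 to 0.035 and a mean of 0.020. The arrays were nearly equal at each of them. The 2 genes therefore differed from each other by 0.28 in how far R80C cells lay from H2A.Z.1 cells, with a range of 0.25 to 0.35 over the 16 pairs of an LDHA and an LDHB probe. A constant scaling of the arrays cannot move this value. The pairs reuse the same probes, so they are not 16 separate readings.

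Under the scaling reported, each gene measured in upper glycolysis lay slightly above 0. Signs were not counted over all named genes, so this is not read as a trend of the step. HK1, which phosphorylates glucose, was printed as 5 spots of 1 probe, reading 6499, 6337, 6761, 6863 and 6584 in R80C cells, against 6225, 6289, 6486, 6531 and 6327 in H2A.Z.1 cells. Every R80C spot was brighter than its partner, with a mean difference of 0.083 and an SD of 0.024 between spots. The measured HK2 probe read 99.6 in R80C cells and 95.9 in H2A.Z.1 cells, a difference of 0.085. The 2 hexokinases thus stood 0.0020 apart at these probes, but HK2 rested on 1 probe and stood at 0.39 when its probe below background was included.

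GPI, the isomerase after hexokinase, read 64155, 14591 and 2473 in R80C cells, against 62458, 14577 and 2373 in H2A.Z.1 cells, a mean difference of 0.064. PFKM read 18.0 in R80C cells and 16.1 in H2A.Z.1 cells at its measured probe, a difference of 0.19 with an error of 0.28. It was the faintest member measured, and the value shrank to 0.094 over all 4 probes. ALDOC, an aldolase known as the brain form in mammals, had 3 probes with differences from 0.025 to 0.071 and a mean of 0.043. TPI1, triosephosphate isomerase, read 34121 and 33531 in R80C cells, against 31868 and 32906 in H2A.Z.1 cells, a mean difference of 0.094. Each of these differences was smaller than the Feature Extraction error.

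The enzymes between triose phosphate and pyruvate were closer to equal. GAPDH, a dehydrogenase often used as a reference gene, had 5 probes between 42279 and 283115 in R80C cells and between 42533 and 287473 in H2A.Z.1 cells, and their differences lay between 0.0086 and 0.022. PGAM1, a phosphoglycerate mutase, averaged 0.014 over 4 probes that fell on both sides of 0. ENO1, the broadly expressed enolase, was the 1 glycolytic member below 0 at all of its probes, which read 212786, 88707, 42320 and 26429 in R80C cells, against 221096, 95799, 43505 and 27899 in H2A.Z.1 cells. Its mean difference was -0.040. ENO2 read 256 and 53.3 in R80C cells, against 250 and 53.2 in H2A.Z.1 cells, a mean of 0.050. Each of 8 probe pairs put ENO1 below ENO2, by 0.090 on average, but the pairs reuse the same probes and are not 8 separate readings.

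Listed names without a symbol of their own in the naming table were PGK1, PKM, PDHA1, ENO3 and TKT. The table gives PGK1 as a synonym of PGK2, PKM of PKLR and PDHA1 of PDHA2, and these entries are described here without being counted among the members. PGK2 had a difference of 0.050 over 3 probes, PKLR of 0.023 over 4 and PDHA2 of 0.014 over 3. All 3 enzymes of these entries, a phosphoglycerate kinase, a pyruvate kinase and the catalytic subunit of pyruvate dehydrogenase, had differences under 0.1 in size. PGK2 lay further from 0 than GAPDH (0.015) and PGAM1 (0.014), the steps on either side of it. PDHA2 lay nearer to 0 than its partner PDHB (0.13). PFKL, PFKP, ALDOA, PFKFB3, CS, IDH1 and MDH2 are in the table but matched no probe's accession, and they were not analysed here.

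At the entry to the citrate cycle, PDHB, a subunit of pyruvate dehydrogenase, had the next largest difference after LDHA and PFKM. Its 3 probes read 5127, 4526 and 3943 in R80C cells, against 4815, 4164 and 3704 in H2A.Z.1 cells, with differences of 0.12, 0.15 and 0.12 and a mean of 0.13. All 3 were brighter in R80C cells, and none exceeded the Feature Extraction error. A larger difference was seen in 13.5% of named genes. Of the kinases, PDK1 averaged 0.032 over 2 probes that read 6142 and 691 in R80C cells and 6175 and 686 in H2A.Z.1 cells. PDK3 averaged -0.044 over probes that read 3050 and 1882 in R80C cells and 3325 and 1914 in H2A.Z.1 cells, and these disagreed, at -0.094 and 0.0065. PDHB lay above PDK3 in 6 of 6 probe pairs, by 0.17 on average (0.11 to 0.24), and above PDK1 in 6 of 6, by 0.099. The 6 pairs reuse 3 and 2 probes on the same 2 arrays, so they are not 6 separate readings. Other gene pairs were not counted in this way. Of the complex's other genes measured, PDHA2 stood at 0.014, below PDK1, DLD at 0.039 and PDHX at 0.066. The gap is therefore one of PDHB and is not read as one between the complex and its kinases.

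The members listed under the citrate cycle had a median of 0.0037 over 7 genes, with none beyond 0.05 in size. ACO1 and MDH1, the highest of these, encode cytosolic enzymes outside the mitochondrial cycle. SUCLG1, the alpha subunit of succinyl-CoA synthetase, read 3365, 2146, 1232 and 629 in R80C cells, against 3586, 2243, 1327 and 645 in H2A.Z.1 cells. It was dimmer in R80C cells at 4 of 4 probes, with a mean of -0.044. SUCLG2, the beta subunit that makes GTP, stood at 0.0037 over 2 probes. Among the others, ACO1, the cytosolic aconitase that doubles as an iron sensor, stood at 0.046, MDH1, the cytosolic malate dehydrogenase, at 0.044 and FH, fumarase, at 0.021. IDH3A, a subunit of the mitochondrial isocitrate dehydrogenase, stood at -0.030 with 1 probe. OGDH, of the oxoglutarate dehydrogenase complex, stood at -0.0041, with its 3 probes between -0.051 and 0.053.

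The pentose phosphate members were nearly equal. PGD, the phosphogluconate dehydrogenase that makes NADPH, stood at 0.015 over 3 probes and read 23975 in R80C cells and 24193 in H2A.Z.1 cells at the brightest. TALDO1, transaldolase, stood at 0.0044 over 2 probes. PFKFB4, which sets the level of the main activator of phosphofructokinase, read 110 in R80C cells and 111 in H2A.Z.1 cells, a difference of 0.010. PCK2 read 619, 478 and 206 in R80C cells, against 580, 470 and 194 in H2A.Z.1 cells, a mean of 0.10 with all 3 probes brighter in R80C cells.

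**Figure D3:**
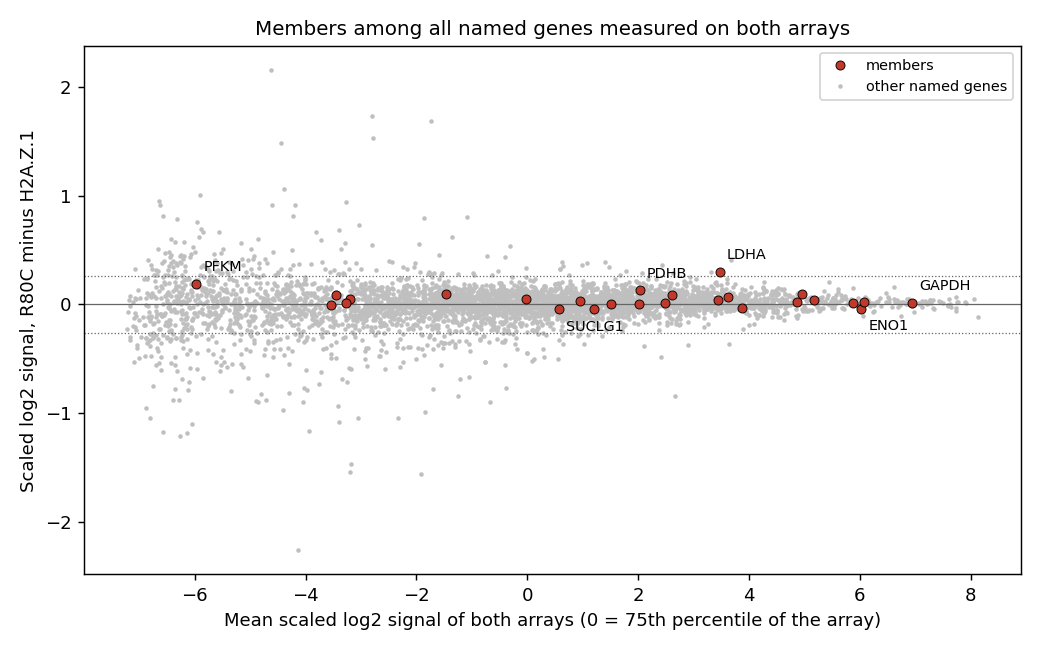
Mean scaled log2 signal of both arrays (x axis, 0 is the array's 75th percentile) against the difference R80C minus H2A.Z.1 (y axis, log2) of 4326 named genes, with the 26 members in red and dotted lines at 1.2-fold. Faint genes spread widely and bright genes little, and LDHA is the 1 member beyond a dotted line.

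How far a gene could stray depended on its signal. With the named genes ordered by signal and cut into 4 equal classes, the SD of differences was 0.32 in the faintest class and 0.085 in the brightest, which held 15 of the 26 members. The members' own SD was 0.076, or 0.056 without LDHA, against 0.098 for genes at or above the median signal and 0.20 for all named genes. Of the 20 members with several measured probes, 12 were above 0 at all of them, 2 (ENO1 and SUCLG1) below 0 at all of them and 6 on both sides. These counts were not set against all named genes, and the side of 0 depends on the scaling. GAPDH, counted here as above 0, stood at -0.016 after loess. Relative to the median of all named genes, 18 members lay above it and 8 not, and this split was 14 above after quantile normalization or loess.

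Other genes of these pathways, a list of 85 chosen by function, were spread more widely than the members, from -1.05 to 0.19. Their SD was 0.22, against 0.20 for all named genes. PRPS2, with 1 probe, set the low end at -1.05, and HIF1A was next at -0.44. The SD without PRPS2 was not computed, so the wider spread may rest largely on that gene. The listed genes were also fainter, with 17 of the 32 measured at or above the median signal, against 20 of the 26 members. Of the list, 36 had a named probe and 32 were measured, with a median difference of 0.0021 and 22 of the 32 under 0.1 in size, against 62.2% of all named genes. At least 1.2-fold lower in R80C cells were 2 of the 32, PRPS2 and HIF1A, against 5.99% of all named genes, and 0 were 1.2-fold higher, against 4.07%, so the list's counts lay near the background. PRPS2, which turns the ribose phosphate of the pentose pathway into the precursor of nucleotides, read 146 in R80C cells and 310 in H2A.Z.1 cells at its 1 probe, 2.07-fold lower. HIF1A, a transcription factor that induces glycolytic genes in low oxygen, stood at -0.44 over 7 probes, with mean signals of 257 in R80C cells and 353 in H2A.Z.1 cells.

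Within that list, MYC, which also activates glycolytic genes, stood highest among the regulators at 0.15 with 1 probe. Of the transporters, SLC2A2, a glucose carrier, stood highest at 0.19 and SLC16A3, a lactate carrier, lowest at -0.21, both faint with 1 measured probe each. With the processing varied, SLC2A2 ran from 0.0040 to 0.23 and SLC16A3 from -0.23 to -0.044. SLC16A1, the other lactate carrier measured, was added after its value was seen. It stood at 0.086 with 4 of 4 probes above 0, and 22.7% of named genes had a larger difference. PGM2, a phosphoglucomutase, was highest of the other glycolytic enzymes at 0.12 and ADPGK, a glucokinase that uses ADP, lowest at -0.10. PGLS, the lactonase of the pentose pathway, stood at 0.13. For pyruvate entry the extremes were PDHX at 0.066 and MPC2, a pyruvate carrier subunit, at -0.037. Among the genes listed with the citrate cycle they were IDH3B, a partner of IDH3A, at 0.061 and ME1 at -0.15. ME1 is the cytosolic malic enzyme, outside the mitochondrial cycle. For the shuttles the extremes were GOT2 at 0.063 and GOT1, the cytosolic aspartate aminotransferase, at -0.17.

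**Figure D4:**
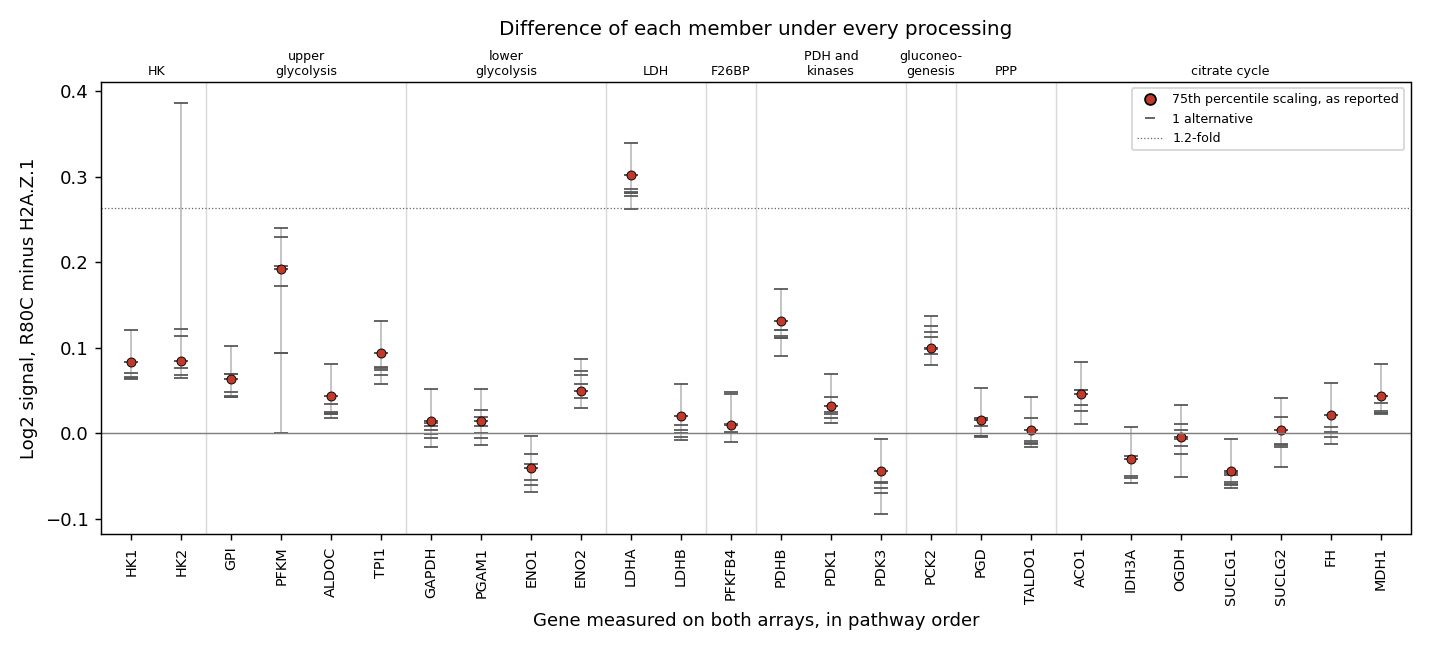
Log2 difference, R80C minus H2A.Z.1, of each of the 26 measured members under the scaling reported (red) and each of 10 alternatives (dashes), in pathway order, with a dotted line at 1.2-fold. LDHA stays between 0.26 and 0.34, while HK2 and PFKM, both with probes below background, spread most.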

How the data were processed

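Total RNA of 2 DT40 cultures was labelled with Cy3 and hybridised to 1 array each, per the labels' protocols. The deposited scanner files hold linear intensity per spot from Agilent Feature Extraction 11.5.1.1 (protocol GE1_1105_Oct12, grid build galGal3), per the file headers: the processed signal, subtracted for background and not normalized between arrays, its error estimate, raw median signals, and 0 or 1 flags. The authors also deposited a series matrix of linear intensity on an unstated basis, which was the processed signal times 1.51 (R80C) and 1.50 (H2A.Z.1), with column medians of 125.1 and 129.9.

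Samples were grouped by the expressed protein in the labels. Processed signals were divided by the 75th percentile of each array (controls left out) and taken to log2. Spots of a probe, then probes of a gene, were averaged as log2 differences, over probes well above background on both arrays and with no outlier flag. Signals given for a gene are means over probes. Names came from a RefSeq table of assembly GRCg7b through accessions without version, which named 11935 of 13060 probes with such an accession. As the builds differ, no coordinates are given, and probe sequences were not used here. The number of arrays limits the precision.

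Members and lists were chosen with earlier results of these data known. All members are described. From the other pathway genes, the text names the highest and lowest measured one per list and any at least 1.5-fold different; HIF1A is the lowest regulator and SLC16A1 was added after its value was seen. The error of a difference combines both arrays' relative errors. Alternatives were loess, scaling on spike-ins or on the array median, quantile normalization, normexp (offset 50) with quantile normalization (limma 3.58.1, R 4.3.3), the series matrix, 2 other detection rules and 2 other probe rules. The scaling was tested on simulated data.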

Additional observations from a re-analysis of the deposited data

How the results depend on the processing

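Over 10 alternatives, 24 of the 26 measured members kept a value within 0.094 of that reported. That figure is the SD between probes of 1 gene over all named genes, and among the members this SD was 0.031. This is a loose check, since 0.094 is larger than the members' own SD between probes and than the difference of most members. Several alternatives could also move little. Scaling on the array median or on spike-ins shifts every gene by the same amount, and the series matrix is nearly a multiple of the processed signal. The 2 other detection rules could move only members with a probe below background, HK2 and PFKM. HK2 reached 0.39 with no filter on dim probes, and PFKM stood at 0.094 there and under the lenient detection flag, and at 0 after normexp with quantile normalization. The count of members at least 1.2-fold higher, 1 as reported, was 2 (LDHA and HK2) with no filter on dim probes and 0 after normexp with quantile normalization, where LDHA stood at 0.26, just under the threshold. LDHA minus LDHB stayed between 0.27 and 0.29, and LDHA was the highest member in 10 of 11 settings, the exception being no filter on dim probes. The members' median ran from 0.0066 to 0.064 as that of all named genes ran from -0.0066 to 0.051, and 14 to 23 members lay above 0. In every setting 12 members were above 0 and 3 (ENO1, PDK3 and SUCLG1) below, while 11 touched or crossed 0. Of these, PFKM did so only after normexp with quantile normalization. Signs were not counted over all named genes, so the members' counts are not read as a trend of the pathways. PRPS2 was at -0.75 and HIF1A at -0.27 after normexp with quantile normalization. No paired analysis was possible because each group had 1 array.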
